A study of Mus musculus with 6 samples.

Results

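Translation initiation factors are the proteins that bring the small ribosomal subunit, the initiator tRNA and an mRNA together at a start codon. The 57 genes described here are the rows of the deposited count table, 27179 genes in all, whose mouse symbol begins with Eif and a digit; 1 pseudogene row was left out. Of the 57, 56 are annotated as protein-coding, and Eif2c5, annotated as a long non-coding RNA, carries an Argonaute symbol rather than that of an initiation factor. The RNA came from bone marrow stromal cells of P2 (postnatal day 2, by the usual convention) C57BL/6 mice with the genotype Cxcl12-dsred/+, which carry the red fluorescent reporter DsRed at 1 copy of the chemokine gene Cxcl12. Cells positive for DsRed and negative for CD45, Ter119 and CD31, surface markers of blood, erythroid and endothelial cells, had been sorted, and poly(A) RNA was isolated from them. The 3 groups were RNA bound by an antibody to N6-methyladenosine (m6A), an internal base modification of mRNA (anti-m6A, 2 libraries), RNA bound by IgG beads as background (IgG, 2 libraries) and the 6% of RNA set aside before the pull-down (Input, 2 libraries). All 3 groups thus share the same reporter genotype, strain, age and sort. The labels do not say how many mice were pooled or that replicates came from separate animals, and a p-value here rests on how far the libraries of a group differ, which may be technical variation. They mention no fragmentation of the RNA, and the table has 1 count per gene, so a value refers to a whole transcript and not to a methylated site.

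Initiation starts with a 43S complex, in which eIF1, eIF1A, eIF3, eIF5 and the ternary complex of eIF2, GTP and initiator tRNA sit on the small subunit. The eIF4F complex (cap-binding eIF4E, scaffold eIF4G and RNA helicase eIF4A) recruits it to the mRNA cap, and eIF5B joins the large subunit after the start codon is found. The main control points are phosphorylation of eIF2 alpha, which blocks its recycling by eIF2B, and the 4E-BP proteins, which hold eIF4E away from eIF4G until the kinase mTOR phosphorylates them. In other cells eIF3 has been reported to bind m6A in the leader of mRNAs; the values here are of the factors' own transcripts.

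The libraries held 6102070 and 5133237 counts in anti-m6A, 2487148 and 1278735 in IgG and 7125578 and 9493391 in Input. The IgG libraries stood apart in the number of genes detected, which was 12714 and 12391 in anti-m6A, 3266 and 2723 in IgG and 10024 and 11186 in Input. Of 12 stromal transcripts, Cxcl12 among them, all were detected in each anti-m6A library, at 0.559% and 0.566% of counts, 8 and 7 in IgG, at 0.452% and 0.504%, and all in each Input library, at 1.32% and 1.27%. A list of 10 hepatocyte transcripts took 0.0371% and 0.0393% of the counts in anti-m6A (5 detected in each library), 2.09% and 2.27% in IgG (9 in each) and 0.0105% and 0.108% in Input (7 and 8), with Apob at 0 everywhere. Of 14 blood transcripts in the table, 6 were detected in each anti-m6A library, at 0.0909% and 0.103% of counts, 6 in each IgG library, at 0.643% and 0.633%, and 7 and 8 in Input, at 0.0646% and 0.0895%; Ptprc (CD45) was at 0 everywhere. Of 9 endothelial transcripts 7 and 5 were detected in anti-m6A, 0 in IgG and 4 and 5 in Input, and they took at most 0.00988% of counts. The part of other cell types in the results below was not tested, and in bulk RNA fewer cells of a type and less RNA per cell cannot be told apart.

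The enzyme complex that writes m6A is known to prefer a short motif whose best-known form is GGACT in DNA letters, and m6A is known to be enriched near stop codons. The sequences below are the GGACT match nearest the stop codon, with 10 bases on either side, in the transcripts of 6 members on which the results turn and of Eif4e, the paralogue of Eif4e3, 5′ to 3′ on the transcript's own strand, with GGACT in capitals; they are taken from GENCODE M21 transcripts and lie on GRCm38.
Eif4e3 (chr6:99626849-99626873, minus strand): cgggccattaGGACTcaaagtggca
Eif4e (chr3:138555580-138555604, plus strand): aaagcagagtGGACTgcactgaagt
Eif4ebp1 (chr8:27260491-27260515, plus strand): tcccgcccggGGACTacagcaccac
Eif4ebp2 (chr10:61452437-61452461, minus strand): agctacctcaGGACTactgcaccac
Eif2b2 (chr12:85226281-85226305, plus strand): agtgcgtccaGGACTgctcctgcct
Eif1ad (chr19:5370106-5370130, plus strand): atttgctcagGGACTaccccttggc
Eif4g2 (chr7:111074483-111074507, minus strand): ggaaggaaagGGACTgagtttctta
The centre of the match lies in the 3′ UTR of Eif4e3, 146 bases after the end of the stop codon, of Eif4e (88 bases after the end of the stop codon), of Eif2b2 (133 bases after the end of the stop codon) and of Eif1ad (33 bases after the end of the stop codon). It lies in the coding sequence of Eif4ebp1 (259 bases before the end of the stop codon), Eif4ebp2 (265 bases before the end of the stop codon) and Eif4g2 (555 bases before the end of the stop codon). The transcripts of Eif3k and Eif2s2, both described below, hold no GGACT. A match is a description of the letters and not of a methylated site.

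As a group, initiation factor transcripts took 1.03% and 1.05% of all counts in anti-m6A (exact 95% intervals 1.02 to 1.03 and 1.04 to 1.06), 1.35% and 1.38% in IgG (1.34 to 1.37 and 1.36 to 1.40) and 1.02% and 0.952% in Input (1.01 to 1.03 and 0.945 to 0.958). These intervals, and the floors used below, hold counting error alone, because reads amplified with no molecular identifier may copy the same molecule. Levels below are CPM, counts scaled by library size after TMM, edgeR's trimmed-mean correction for library composition, and changes are log2 ratios from the fit. Between the libraries of a group, the members' counts varied by a mean of 11.8 times the sampling variance in anti-m6A (49 members with at least 20 counts), 36.9 times in IgG (16) and 171 times in Input (51). Over all genes with at least 20 counts the values were 9.93 in anti-m6A, 21.9 in IgG and 119 in Input. Of the 57 members, 51 had enough counts to be tested. Eif2ak3, Eif4e1b, Eif5a2 and Eif2c5 had 0 counts in all 6 libraries, Eif2ak4 had 7 and 3 counts in anti-m6A and 0 elsewhere, and Eif4a3l1, a copy of Eif4a3 with 96.2% identical coding bases, had at most 12 counts in a library. By edgeR's quasi-likelihood test with Benjamini-Hochberg adjustment at 0.05, 39 of the 51 members passed as higher in anti-m6A relative to IgG, and 7 as lower. Among all 11281 genes tested, 73.1% were higher and 8.31% lower in that comparison, and 31 of the 51 members, 60.8%, had 0 counts in both IgG libraries, against 73.4% of all genes tested.

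Against Input, 8 members were higher in anti-m6A and 8 were lower, 15.7% of the 51 each way. The background over all genes tested was 28.0% higher and 20.5% lower, and the median log2 change was -0.07 for the 51 members and 0.18 for all genes. The higher members were Eif4e3, Eif2b2, Eif1ad, Eif4ebp1, Eif3k, Eif2s2, Eif3i and Eif3j2, and the lower ones Eif4ebp2, Eif3e, Eif4g2, Eif2ak2, Eif1a, Eif3d, Eif3m and Eif4g3. Without anti-m6A replicate 1, or without replicate 2, 4 were higher and 0 were lower (3 and 4 members were lower at an unadjusted p under 0.05 by edgeR in these fits). Among all genes, 370 and 408 were then higher and 72 and 93 lower. DESeq2, run on all libraries, called 8 higher and 19 lower members, with 3066 and 3635 genes in all. The main fit had 3156 and 2308 genes in all. Without Input replicate 1 there were 13 higher and 16 lower members (4730 and 3961 genes in all), and without Input replicate 2 there were 16 and 17 (5152 and 3472). Eif4e3, Eif2b2, Eif3k and Eif4ebp1 were called in every alternative fit in which they could be tested (12 for Eif4e3 and 13 for the others), and the other 12 were lost when either anti-m6A library was left out. Without the IgG libraries in the fit, 10 members were higher and 8 lower (3431 and 2375 genes in all), with Eif2ak2 and Eif4g3 no longer called. With DESeq2's size factors, which moved the log2 change of a typical gene by -0.44, the split was 7 higher and 16 lower (2711 and 2982 genes in all). Scaling by library totals (a shift of -0.54) gave 7 and 17 (2609 and 3127 genes in all). Changes below are on the TMM scale, from which these other scalings differ by these shifts in anti-m6A against Input. In anti-m6A against IgG the shifts were -0.22 with DESeq2's size factors and -0.36 with library totals. In IgG against Input they were -0.23 and -0.16.

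**Figure D1:**
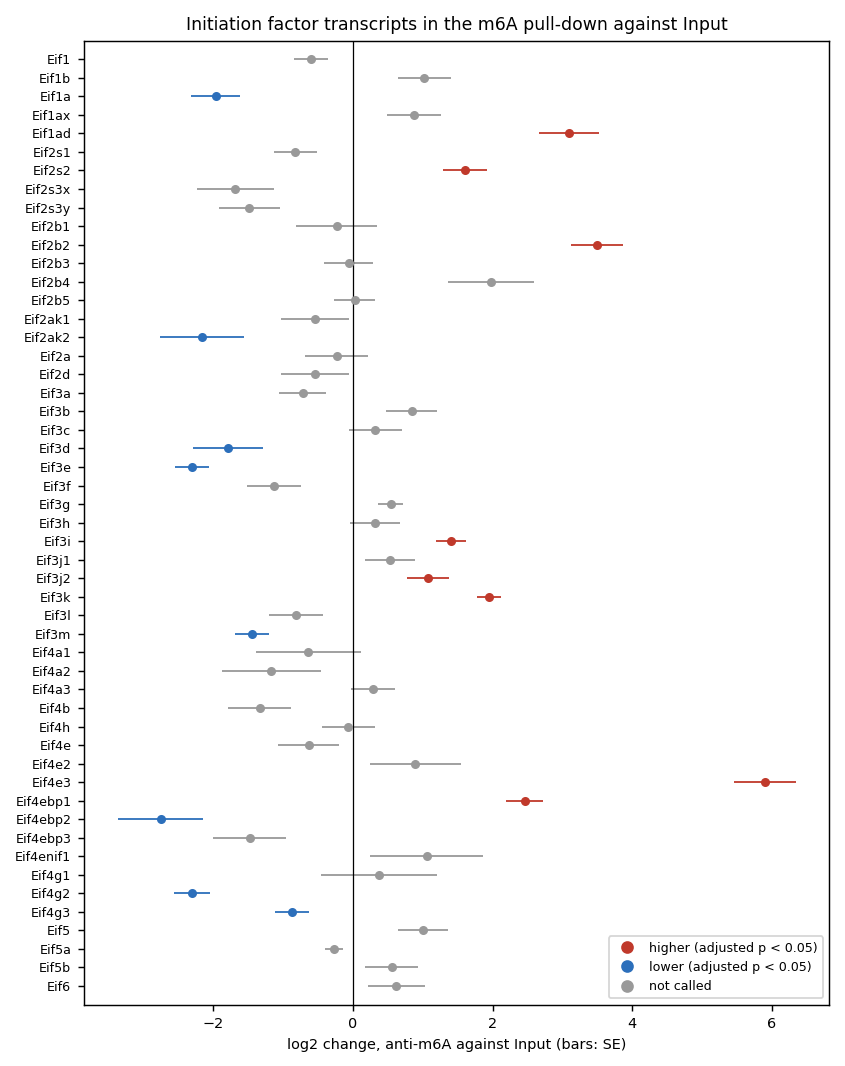
Log2 change of the 51 tested initiation factor transcripts in anti-m6A against Input (horizontal axis), ordered by factor from eIF1 at the top to eIF6 at the bottom; bars are standard errors from the edgeR fit with n = 2 per group. The 8 higher members lie between 1.07 and 5.90, with Eif4e3 farthest right, and the 8 lower members between -2.76 and -0.87.

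Higher in anti-m6A than in both IgG and Input were 5 members, 9.8% of the 51, against 23.6% of all genes tested. They were Eif4e3, Eif1ad, Eif4ebp1, Eif2s2 and Eif3j2, with adjusted p-values (the larger of both one-sided edgeR p-values, adjusted over all genes) of 0.0112, 0.0112, 0.0126, 0.0125 and 0.0462. Without anti-m6A replicate 1, or without replicate 2, 0 members passed by edgeR (5 and 4 at an unadjusted p under 0.05; no other tool was run for this joint call). In each of these fits 1 gene of the whole table passed. With Input replicate 1 or 2 left out 10 members passed, of 4135 and 4497 genes in all. With IgG replicate 1 or 2 left out 3 passed, of 1675 and 1875 genes. The fit of all libraries had 2666.

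Among eIF1, eIF1A and their relatives, Eif1ad was higher and Eif1a lower in anti-m6A than in Input. Eif1 (eIF1, which guards the choice of the start codon) had 170.1 and 202 CPM in anti-m6A, 24.0 and 21.4 CPM with IgG and 318 and 245 CPM in Input. Its paralogue Eif1b, with 81.3% identical coding bases, had 391 and 432 CPM in anti-m6A, 0 counts in both IgG libraries and 265 and 140.1 CPM in Input. Both exceeded IgG in anti-m6A, Eif1 by a log2 change of 3.03 ± 0.27 (SE, n = 2 per group, edgeR adjusted p = 0.000719) and Eif1b at least 265-fold, counted against a floor of 3 counts in each IgG library. Against Input neither passed the test, with log2 changes of -0.60 ± 0.25 for Eif1 and 1.02 ± 0.38 for Eif1b (SE; edgeR adjusted p = 0.0996 and 0.0941). The autosomal eIF1A gene Eif1a had 15.6 and 16.1 CPM in anti-m6A, 0 counts in both IgG libraries and 61.3 and 62.6 CPM in Input. Both its anti-m6A libraries were below both Input libraries. It was lower than in Input by a log2 change of -1.97 ± 0.35 (SE, n = 2 per group, edgeR adjusted p = 0.0144). Eif1ax, the X-linked eIF1A gene, had 295 and 303 CPM in anti-m6A, 0 counts in both IgG libraries and 113 and 214 CPM in Input, a log2 change of 0.87 ± 0.39 that did not pass (SE, edgeR adjusted p = 0.137). Its Input libraries differed by more than its anti-m6A libraries. Eif1a and Eif1ax share 85.5% of their coding bases, which make up 435 bases of transcripts of 2865 and 5172. Whether reads were split between them was not tested.

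Eif1ad encodes a protein with a domain like that of eIF1A. It had 238 and 277 CPM in anti-m6A, 0 counts in both IgG libraries and 21.1 and 39.1 CPM in Input. Its anti-m6A libraries were close to each other and far above both other groups, at a log2 change of 3.10 ± 0.43 (SE, n = 2 per group, edgeR adjusted p = 0.00820) against Input and at least 166-fold above IgG. With 1 anti-m6A library left out, its adjusted p against Input was at most 0.0620. Eif1ad overlaps the gene Banf1, and reads of overlapping genes cannot be told apart without strand. In all, 25 members overlap another gene in the annotation, and some of these overlaps are not named below.

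Of the eIF2 subunits, which carry the initiator tRNA, the beta subunit was called in anti-m6A against Input in the fit of all libraries. Eif2s2 (eIF2 beta) had 533 and 478 CPM in anti-m6A, 0.387 and 0 CPM with IgG and 163 and 171 CPM in Input, where the IgG value is 1 count in 1 library. It was higher than in Input by a log2 change of 1.60 ± 0.32 (SE, n = 2 per group, edgeR adjusted p = 0.0126). Eif2s1 (eIF2 alpha, the subunit that stress kinases phosphorylate) had 41.9 and 37.1 CPM in anti-m6A, 0 counts in both IgG libraries and 75.5 and 64.6 CPM in Input, a log2 difference of -0.83 ± 0.31 (SE, edgeR adjusted p = 0.0950). The gamma subunit is encoded by an X-linked and a Y-linked gene. Eif2s3y had 9.13 and 7.06 CPM in anti-m6A, 0 counts in both IgG libraries and 23.1 and 22.4 CPM in Input. Eif2s3x had 2.70 and 1.51 CPM in anti-m6A, 0 counts in both IgG libraries and 5.09 and 8.63 CPM in Input, less than the Y-linked copy in each of the 4 libraries with counts. Against Input their log2 changes were -1.49 ± 0.44 and -1.69 ± 0.55 (SE, edgeR adjusted p = 0.0526 and 0.0671). The copies share 86.3% of coding bases. Eif2s3y was called lower in 8 of 12 alternative fits and Eif2s2 higher in 10 of 12, lost when either anti-m6A library was left out. All 4 subunit genes exceeded IgG in anti-m6A by the test, as did 73.1% of all genes tested. But Eif2s3x, with 13 and 6 counts in anti-m6A, was at least 1.36-fold higher. Its call was lost when 1 anti-m6A library, whichever it was, was left out.

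Of the 5 genes of eIF2B, the exchange factor that reloads eIF2 with GTP, the beta subunit gene Eif2b2 was the one called against Input and the one with counts in IgG. Eif2b2 (GRCm38, chromosome 12, 85219481 to 85226628) had 144 and 125 CPM in anti-m6A, 1069.9 and 1036 CPM with IgG and 15.7 and 8.05 CPM in Input. Both IgG libraries were above both anti-m6A libraries, which in turn were above both Input libraries. Eif2b2 was higher in anti-m6A than in Input by a log2 change of 3.50 ± 0.38 (SE, n = 2 per group, edgeR adjusted p = 0.00716), lower in anti-m6A than in IgG by 2.97 ± 0.36 (SE, edgeR adjusted p = 0.00141), and higher in IgG than in Input by 6.47 ± 0.43 (SE, edgeR adjusted p = 0.000516). Eif2b1, Eif2b3, Eif2b4 and Eif2b5 had 0 counts in both IgG libraries and were at least 26.6-fold to 51.1-fold higher in anti-m6A. Against Input they did not pass, with log2 changes from -0.23 ± 0.58 for Eif2b1 to 1.97 ± 0.61 for Eif2b4 (SE, edgeR adjusted p = 0.774 and 0.0600). Eif2b5, the catalytic epsilon subunit, had 77.4 and 81.4 CPM in anti-m6A, against 88.0 and 68.4 CPM in Input.

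Of the 4 kinases of eIF2 alpha, Eif2ak1 (HRI, sensitive to heme) and Eif2ak2 (PKR, sensitive to double-stranded RNA) had enough counts to test. Both passed as higher than IgG in anti-m6A, as did 73.1% of all genes tested. Eif2ak2 had 9.33 and 8.57 CPM in anti-m6A, 0 counts in both IgG libraries and 24.1 and 56.4 CPM in Input. Its Input libraries differed widely, yet both lay above the anti-m6A libraries, a log2 change of -2.17 ± 0.60 (SE, n = 2 per group, edgeR adjusted p = 0.0457). This call was lost in 5 of 12 alternative fits, and Eif2ak2 overlaps Gm26637 and a pseudogene. Eif2ak1 had 19.1 and 26.0 CPM in anti-m6A, against 41.4 and 24.5 CPM in Input, and its log2 change of -0.55 ± 0.49 did not pass (SE, edgeR adjusted p = 0.410). Eif2ak3 (PERK, of the endoplasmic reticulum) and Eif2ak4 (GCN2, which senses uncharged tRNA) could not be tested, and 0 counts in a library allow up to 3 counts, 0.622 and 0.756 CPM in anti-m6A and 0.355 and 0.291 CPM in Input. Eif2a and Eif2d, which can bring initiator tRNA to the ribosome without eIF2, did not pass the test against Input. Eif2a had 11.6 and 14.4 CPM in anti-m6A, against 17.5 and 13.1 CPM in Input. Eif2d lay between 12.0 and 25.9 CPM in these 4 libraries.

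The genes of eIF3, the largest initiation factor complex, were called in both directions. Of 14 genes, all tested, 8 passed as higher and 4 as lower in anti-m6A relative to IgG, and against Input 3 were higher, 3 were lower and 8 were not called. These counts stand against 73.1% higher and 8.31% lower than IgG, and 28.0% higher and 20.5% lower than Input, among all genes tested. The Input counts are near the background. Eif3k had 1287 and 1433 CPM in anti-m6A, 1645 and 1366 CPM with IgG and 355 and 349 CPM in Input. Its anti-m6A and IgG libraries lay together, far above Input. It was higher in anti-m6A than in Input by a log2 change of 1.95 ± 0.17 (SE, n = 2 per group, edgeR adjusted p = 0.00716) and did not pass against IgG (-0.15 ± 0.17, SE, edgeR adjusted p = 0.437). Eif3i, which with eIF3g binds the core subunit eIF3b, had 433 and 463 CPM in anti-m6A, 1118 and 1038 CPM with IgG and 142 and 197 CPM in Input. Here the IgG libraries were highest, and anti-m6A was above Input by 1.40 ± 0.22 (log2, SE, n = 2 per group, edgeR adjusted p = 0.00723) and below IgG by 1.27 ± 0.22 (edgeR adjusted p = 0.00371). Eif3j2, a gene of the loosely bound subunit j on chromosome 18, had 91.5 and 77.9 CPM in anti-m6A, 0 counts in both IgG libraries and 38.1 and 42.3 CPM in Input, a log2 change of 1.07 ± 0.30 (SE, n = 2 per group, edgeR adjusted p = 0.0454) against Input. Eif3j2 and Eif3j1 share 99.2% of their coding bases, so both are uncertain, and the Eif3j2 call was lost in 6 of 12 alternative fits, both other scalings included. Eif3j2 also overlaps Gm3650.

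Subunits e, m and d were below Input in anti-m6A. Eif3e had 45.0 and 33.3 CPM in anti-m6A, 277 and 267 CPM with IgG and 193 and 195 CPM in Input. The anti-m6A libraries were the lowest of the 6. It was lower in anti-m6A than in Input by a log2 change of -2.31 ± 0.25 (SE, n = 2 per group, edgeR adjusted p = 0.00716) and lower than in IgG, at -2.80 ± 0.25 (SE, edgeR adjusted p = 0.000737). Eif3m had 54.5 and 45.6 CPM in anti-m6A, 699 and 563 CPM with IgG and 120.2 and 153 CPM in Input, again with anti-m6A lowest and IgG highest. Its log2 changes were -1.45 ± 0.25 against Input and -3.65 ± 0.27 against IgG (SE, n = 2 per group, edgeR adjusted p = 0.00856 and 0.000586); it overlaps Ccdc73. Eif3d, a subunit that can bind the cap of some mRNAs in human cells, had 46.7 and 55.0 CPM in anti-m6A, 0.773 and 0 CPM with IgG and 138 and 213 CPM in Input (2 counts in 1 IgG library), a log2 change of -1.79 ± 0.50 (SE, n = 2 per group, edgeR adjusted p = 0.0344) against Input. All 3 calls against Input were lost when either anti-m6A library was left out, with Eif3e at adjusted p of at most 0.0646 by edgeR.

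**Figure D2:**
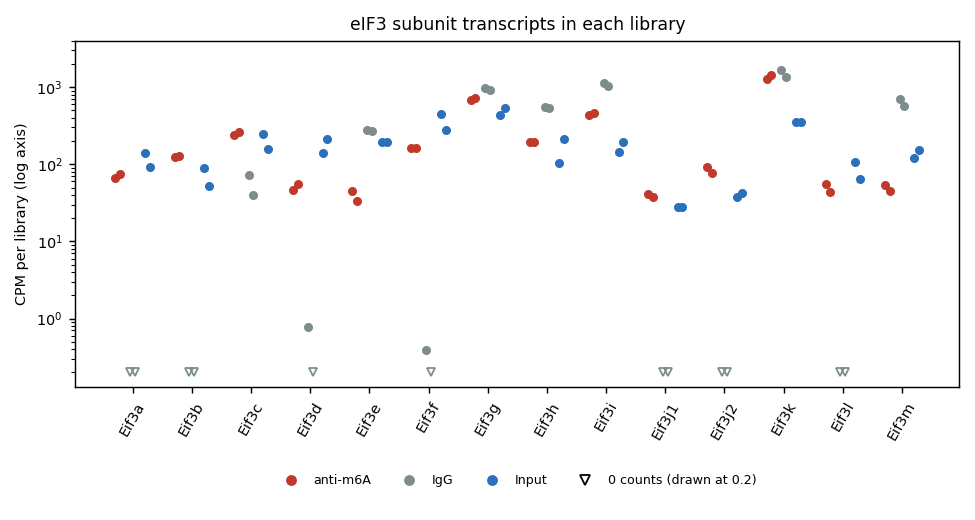
Normalised counts (CPM, log axis) of the 14 eIF3 subunit genes in each of the 6 libraries, with anti-m6A, IgG and Input side by side for each gene; open triangles mark libraries with 0 counts, drawn at 0.2. IgG lies highest for Eif3e, Eif3g, Eif3h, Eif3i and Eif3m, and at 0 in both libraries for Eif3a, Eif3b, Eif3j1, Eif3j2 and Eif3l.

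The scaffold subunits Eif3a and Eif3b had 0 counts in both IgG libraries and were at least 45.2-fold and 81.5-fold higher in anti-m6A, while Eif3c, the third scaffold subunit, had 239 and 263 CPM in anti-m6A, 72.7 and 40.2 CPM with IgG and 246 and 156 CPM in Input. Eif3c was higher in anti-m6A than in IgG by a log2 difference of 2.15 ± 0.40 (SE, edgeR adjusted p = 0.00478). Against Input none of the scaffold subunits passed (log2 changes of -0.72 ± 0.33 for Eif3a, 0.84 ± 0.37 for Eif3b and 0.32 ± 0.38 for Eif3c, SE). Eif3g was abundant everywhere, at 687 and 720.2 CPM in anti-m6A, 963 and 921 CPM with IgG and 436 and 534 CPM in Input, and passed neither test of anti-m6A (edgeR adjusted p = 0.0528 against Input and 0.0697 against IgG). Eif3h had 195 and 197 CPM in anti-m6A, 555 and 531 CPM with IgG and 104 and 210.4 CPM in Input. It was lower in anti-m6A than in IgG by 1.47 ± 0.37 (log2, SE, edgeR adjusted p = 0.0130), a call lost without anti-m6A replicate 1 or IgG replicate 1 (adjusted p of at most 0.0524). Eif3f, with 1 count in 1 IgG library, and Eif3l, with 0, had log2 changes of -1.14 ± 0.39 and -0.82 ± 0.39 against Input that did not pass (SE, edgeR adjusted p = 0.0608 and 0.160); Eif3f was called lower in 6 of 12 alternative fits.

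Within the cap-binding family 1 member stood out. Eif4e3 (GRCm38, chromosome 6, 99621879 to 99692873), an atypical cap-binding protein, had 148 and 159.8 CPM in anti-m6A, 0 counts in both IgG libraries and 3.20 and 1.94 CPM in Input, that is 714 and 634 counts in anti-m6A against 27 and 20 in Input. Both anti-m6A libraries lay far above all 4 other libraries. Relative to Input its log2 change reached 5.90 ± 0.44 (SE, n = 2 per group, edgeR adjusted p = 0.00716), a 59.6-fold difference, and Eif4e3 was at least 99.2-fold higher than in IgG. Its log2 change against Input stayed between 5.34 and 6.31 in 12 alternative fits, with adjusted p of at most 0.0361. The gene overlaps Gpr27 and a long non-coding RNA. Eif4e, the canonical cap-binding factor, with 47.6% identity to Eif4e3 over the alignment of their coding bases, had 16.8 and 16.6 CPM in anti-m6A, 0 counts in both IgG libraries and 21.9 and 30.1 CPM in Input. It was at least 10.8-fold higher than in IgG, and its log2 change against Input was -0.64 ± 0.43 (SE, edgeR adjusted p = 0.294). Eif4e2 (4EHP, a cap-binding repressor of translation) had 416 and 436 CPM in anti-m6A, 34.4 and 9.72 CPM with IgG and 142 and 317 CPM in Input. It was higher in anti-m6A than in IgG by 4.24 ± 0.74 (log2, SE, edgeR adjusted p = 0.00393) and did not pass against Input (0.89 ± 0.65, SE, edgeR adjusted p = 0.307), where its Input libraries were far apart.

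The 4E-BP genes, whose proteins restrain eIF4E, split by paralogue. Eif4ebp1 (GRCm38, chromosome 8, 27260327 to 27275656) had 2399 and 2809.9 CPM in anti-m6A, 1131 and 1034 CPM with IgG and 575 and 372 CPM in Input, the highest CPM of any member in anti-m6A. Every anti-m6A library was above every IgG library, and these were above both Input libraries. It was higher in anti-m6A than in Input by a log2 change of 2.46 ± 0.26 (SE, n = 2 per group, edgeR adjusted p = 0.00716) and higher than in IgG by 1.27 ± 0.25 (SE, edgeR adjusted p = 0.00579). Eif4ebp1 alone made up 18.5% and 20.7% of all member counts in anti-m6A, 8.69% and 9.02% in IgG and 6.68% and 4.24% in Input. Eif4ebp2 had 2.28 and 1.51 CPM in anti-m6A, 0 counts in both IgG libraries and 17.4 and 8.63 CPM in Input, with 11 and 6 counts in anti-m6A against 147 and 89 in Input. It was lower than in Input by a log2 change of -2.76 ± 0.61 (SE, n = 2 per group, edgeR adjusted p = 0.0250), a call lost when either anti-m6A library was left out. The windows printed above for Eif4ebp1 and Eif4ebp2 share GGACTAC and end in the same GCACCAC. Whether these letters bear on their opposite directions against Input was not tested. Eif4ebp3 had 2.07 and 3.28 CPM in anti-m6A, against 9.35 and 5.63 CPM in Input (log2 change -1.48 ± 0.52, SE, edgeR adjusted p = 0.0811). Eif4enif1 (4E-T, an eIF4E carrier) had 67.4 and 58.5 CPM in anti-m6A, 0 counts in both IgG libraries and 10.8 and 49.8 CPM in Input. It did not pass against Input (edgeR adjusted p = 0.343) and overlaps Sfi1 and Gm51877.

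**Figure D3:**
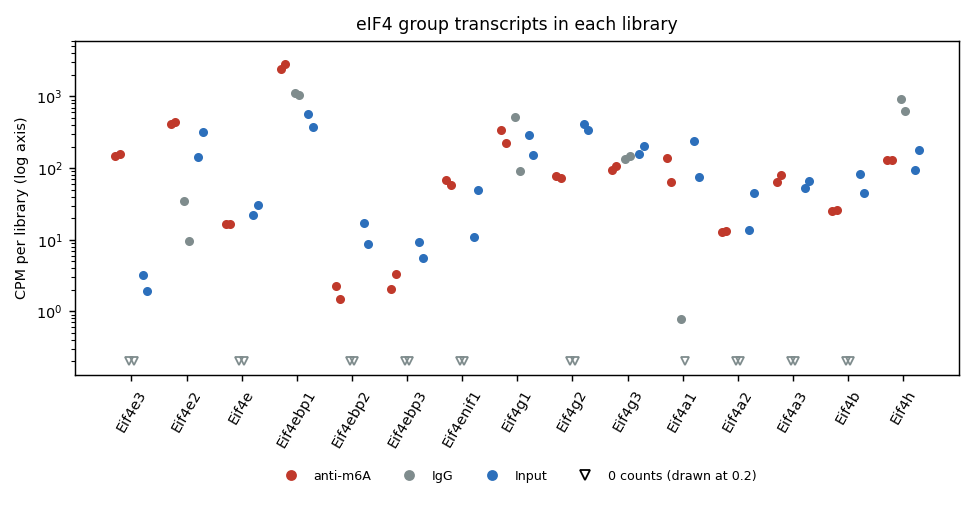
Normalised counts (CPM, log axis) of 15 genes of the eIF4 group in each library, with anti-m6A, IgG and Input side by side for each gene; open triangles mark libraries with 0 counts, drawn at 0.2. Both anti-m6A points of Eif4e3, Eif4ebp1, Eif4e2 and Eif4enif1 lie above the other 4 points of the gene. Those of Eif4ebp2, Eif4g2, Eif4g3, Eif4e, Eif4ebp3, Eif4a2 and Eif4b lie below both Input points. Of these genes, Eif4e3, Eif4ebp1, Eif4ebp2, Eif4g2 and Eif4g3 were called against Input.

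Of the eIF4G scaffold genes, Eif4g2 and Eif4g3 were called lower in anti-m6A relative to Input, as were 20.5% of all genes tested. Both calls were lost when either anti-m6A library was left out. Eif4g2 (DAP5, which lacks the eIF4E-binding part and serves cap-independent initiation) had 77.2 and 73.9 CPM in anti-m6A, 0 counts in both IgG libraries and 408 and 339 CPM in Input. Its groups were far apart, at a log2 change of -2.31 ± 0.25 (SE, n = 2 per group, edgeR adjusted p = 0.00716) against Input and at least 48.6-fold higher than in IgG; with 1 anti-m6A library left out, its adjusted p against Input was at most 0.0766. Eif4g3 had 93.1 and 105 CPM in anti-m6A, 134 and 148 CPM with IgG and 158 and 205 CPM in Input, a log2 change of -0.87 ± 0.25 (SE, n = 2 per group, edgeR adjusted p = 0.0357) against Input, lost in 4 of 13 alternative fits. Eif4g1, the main scaffold, had 339.9 and 226 CPM in anti-m6A, 523 and 91.4 CPM with IgG and 285 and 151 CPM in Input, so that its IgG libraries differed more from each other than the groups did (edgeR adjusted p = 0.740 against Input and 0.916 against IgG).

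The helicase genes Eif4a1, Eif4a2 and Eif4a3 did not pass against Input. Eif4a1 had 138 and 63.8 CPM in anti-m6A, 0.773 and 0 CPM with IgG and 240.0 and 75.6 CPM in Input, where the IgG value is 2 counts in 1 library. Eif4a2 had 12.9 and 13.4 CPM in anti-m6A, 0 counts in both IgG libraries and 13.8 and 45.1 CPM in Input. Eif4a3, of the exon junction complex, had 63.7 and 79.7 CPM in anti-m6A, 0 counts in both IgG libraries and 52.1 and 65.4 CPM in Input. All 3 passed as higher than IgG in anti-m6A, as did 73.1% of all genes tested. The Input libraries of Eif4a1 and of Eif4a2 were far apart. Eif4a1 and Eif4a2 overlap snoRNA genes in the annotation, and Eif4a2 also overlaps Rfc4. The helicase cofactor Eif4b had 25.1 and 26.0 CPM in anti-m6A, 0 counts in both IgG libraries and 84.0 and 45.0 CPM in Input. The other cofactor, Eif4h, had 131 and 130.3 CPM in anti-m6A, 923 and 619.7 CPM with IgG and 94.8 and 179 CPM in Input, with IgG highest. Eif4h was lower in anti-m6A than in IgG by a log2 difference of 2.56 ± 0.40 (SE, edgeR adjusted p = 0.00273), and neither cofactor passed against Input.

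Eif5, Eif5b, Eif5a and Eif6 did not pass in anti-m6A against Input. Eif5, the activator of the eIF2 GTPase, had 1097 and 1269 CPM in anti-m6A, 0 counts in both IgG libraries and 416 and 769.8 CPM in Input, and at least 762-fold more in anti-m6A than in IgG, the highest such bound among the members. Its log2 change against Input was 1.00 ± 0.36 (SE, edgeR adjusted p = 0.0851). Eif5b, which joins the subunits, had 398 and 354 CPM in anti-m6A, 0 counts in both IgG libraries and 333 and 177 CPM in Input. It was at least 242-fold higher than in IgG and overlaps Rev1. Eif5a, the hypusine-bearing factor that helps ribosomes through difficult peptides, had 1364 and 1260.5 CPM in anti-m6A, 2616 and 2584 CPM with IgG and 1598 and 1564 CPM in Input. IgG was highest in both libraries, and Eif5a was lower in anti-m6A than in IgG by 0.99 ± 0.13 (log2, SE, edgeR adjusted p = 0.00166); it overlaps Gps2. Eif6, which keeps the large subunit from joining early, had 534 and 583 CPM in anti-m6A, 1230.3 and 1201 CPM with IgG and 215 and 510.4 CPM in Input, and its Input libraries were far apart. Its log2 change against IgG, which missed the threshold, was -1.12 ± 0.42 (SE, edgeR adjusted p = 0.0506). It was called lower in 7 of 13 alternative fits, with adjusted p from 0.000354 to 0.137 over them.

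In IgG against Input, 10 members were higher and 38 were lower, 19.6% and 74.5% of the 51. Over all genes tested 9.89% were higher and 61.5% lower. The highest change was that of Eif2b2, 6.47 ± 0.43, followed by Eif3i (2.67 ± 0.23), Eif4h (2.50 ± 0.39) and Eif3m (2.21 ± 0.25) (log2, SE, n = 2 per group; edgeR adjusted p from 0.000516 to 0.00283). The Input levels of members found and not found on IgG beads overlapped. The 31 members at 0 in both IgG libraries had mean Input levels from 2.57 to 593 CPM, with a median of 40.3, and the 16 with counts in both had 11.9 to 1581 CPM, with a median of 210.0. Eif4g2, at 373 ± 48.7 CPM in Input (SD, n = 2), had 0 counts in IgG and was at least 240.5-fold lower there, while Eif2b2, at 1053 ± 24.1 CPM in IgG, had 11.9 ± 5.44 CPM in Input (SD, n = 2 each). The comparisons of anti-m6A and of IgG with Input share the Input libraries. For the members higher in anti-m6A than in Input, the log2 changes of IgG against Input were 6.47 ± 0.43 for Eif2b2, 2.67 ± 0.23 for Eif3i, 2.10 ± 0.17 for Eif3k and 1.19 ± 0.25 for Eif4ebp1 (SE; all called higher), while Eif4e3, Eif1ad, Eif2s2 and Eif3j2 were lower in IgG than in Input. The Eif4ebp1 call in IgG against Input was lost in 3 of 13 alternative fits, among them DESeq2's size factors and the fit without IgG replicate 1, with a log2 change down to 0.29 and an edgeR adjusted p of up to 0.340.

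**Figure D4:**
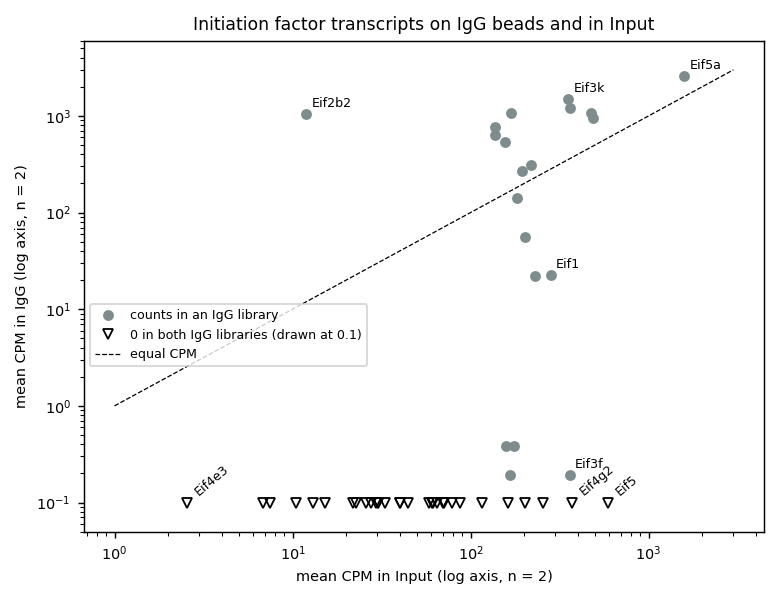
Mean CPM of the 51 tested members in IgG (vertical axis) and in Input (horizontal axis), both log axes with n = 2 per group; the dashed line marks equal CPM, and open triangles mark the 31 members with 0 counts in both IgG libraries, drawn at 0.1. Eif2b2 lies far above the line at a low Input level, and Eif5 and Eif4g2 lie at 0 in IgG at high Input levels.

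Per kilobase of transcript, the most abundant member in Input was Eif5a, at 1100.1 ± 16.4 CPM per kb (SD, n = 2). Eif3k (455 ± 5.22) and Eif3g (440.3 ± 62.8) came next and did not differ beyond their spread, and neither did Eif6 (242 ± 139), Eif4ebp1 (237 ± 72.0), Eif1 (213 ± 39.1) and Eif1b (196 ± 85.1) among themselves. In anti-m6A the order of the first 3 was Eif3k (1757 ± 134), Eif4ebp1 (1304 ± 146) and Eif5a (913 ± 51.0 CPM per kb, SD, n = 2). In IgG it was Eif3k (1945 ± 254), Eif5a (1809 ± 16.2) and Eif3i (959.7 ± 50.4 CPM per kb, SD, n = 2), of which the first 2 did not differ beyond their spread. Eif4e3 was among the scarcest in Input, at 1.02 ± 0.353 CPM per kb, and stood at 61.2 ± 3.30 in anti-m6A (SD, n = 2 each).

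Transcript features that the choice of members did not use were compared as a description. GGACT occurred in 46 of the 51 tested members' transcripts (90.2%) and in 91.6% of the 10317 tested genes with a coding GENCODE transcript, at medians of 1.17 and 1.06 matches per kb on the transcript strand. Within 200 bases on either side of the stop codon's end, it occurred in 17 of 40 members with a full window (42.5%), against 41.5% of 8987 genes. Of the 8 members higher than Input 6 held a match anywhere, and 3 of the 6 with a full window held one near the stop codon. Of the 8 lower members 8 held one anywhere, and 0 of the 5 with a full window near the stop codon. The higher members' transcripts had a median of 2188 bases (774 to 2556) and the lower members' 3589 (1283 to 7995). Across the 51 members Spearman's rho of the log2 change against Input with transcript length was -0.16 (-0.20 across all 10317 genes), with GGACT per kb -0.07 (0.03) and with mean abundance 0.47 (-0.10). Mean abundance was the average log2 CPM over all 6 libraries. It thus includes the anti-m6A and Input counts that also form the log2 change, and no conclusion is drawn from that rho. All of these are correlations across genes that share the same 6 libraries, and genes are not independent replicates.

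Other genes of initiation were read from a list of 40, of which 39 could be tested. Their calls come from the fit of all libraries and were not followed through the alternative fits. Against IgG 30 were higher in anti-m6A and 4 lower (76.9% and 10.3%), and against Input 6 were higher and 7 lower (15.4% and 17.9%, with the same background of 28.0% and 20.5%). Among the genes called, the 5 largest increases against Input were those of Ppp1r15b (5.90 ± 0.57) and Ppp1r15a (1.36 ± 0.32), the phosphatase subunits that undo eIF2 alpha phosphorylation, Metap1 (4.41 ± 0.90), which removes the initiator methionine, Dhx9 (2.18 ± 0.42), an RNA helicase, and Denr (1.18 ± 0.25), a ribosome recycling factor (log2, SE, n = 2 per group, edgeR adjusted p from 0.00716 to 0.0303). Ppp1r15b had 29.5 and 29.7 CPM in anti-m6A, 0 counts in both IgG libraries and 0.355 and 0.582 CPM in Input, which is 142 and 118 counts against 3 and 6. The 5 largest decreases among the genes called were those of Rptor (-4.60 ± 0.44), the mTOR complex subunit that recognises 4E-BPs, Paip2b (-4.10 ± 0.78), an inhibitor of poly(A)-binding protein, Atf5 (-3.47 ± 0.55), a stress transcription factor, Ddx3x (-2.49 ± 0.29), a helicase, and Bzw2 (-1.85 ± 0.26), which resembles eIF5 (log2, SE, edgeR adjusted p from 0.00716 to 0.0170).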

How the data were processed

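MeRIP (pull-down of methylated RNA by an antibody) was read as whole-number counts per gene, which the authors deposited as 1 table of 27179 Entrez gene numbers in 6 libraries with no normalization. The submitters' processing notes name featureCounts, Picard, edgeR 3.38.1 and the build mm10; aligner and annotation: not given in the sources used here. Per the labels' protocols, libraries were made by Smart-seq2, which keeps no strand and no molecular identifiers. Symbols were matched by Entrez number for 25275 rows; the other 1904 rows held 0.722% to 1.38% of counts.

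All 6 libraries were fitted in 1 model over the whole table with edgeR 4.0.16 in R 4.3.3: filterByExpr by group (11281 genes kept, minimum count 10), TMM scaling, quasi-likelihood tests and Benjamini-Hochberg adjustment over all genes tested, threshold 0.05. Both groups of a comparison hold 2 libraries, with 3 residual degrees of freedom in all. CPM are counts scaled by the TMM library size. A 0 stands for at most 3 counts in folds given as bounds. The test was also run on simulated counts with 200 genes changed. The outcome of that run is not given here. Alternatives were DESeq2's size factors, library totals, no filter, at least 10 counts in every library, fits of only the groups compared, the replicate block, DESeq2 1.42.0 and each library left out. The rule named all members and gave per-library values for those called against Input, lower than IgG or with counts in both IgG libraries and for their close paralogues, plus the 5 partner genes with the largest called change in each direction; values of some other members were added. Members and lists were chosen with earlier results of these data known. The transcript of a gene was that with the best APPRIS rank in GENCODE M21 (GRCm38), then the longest coding part; gene positions and overlaps are RefSeq's on GRCm38.p6.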

Additional observations from a re-analysis of the deposited data

How the results depend on the processing

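With 2 libraries a group and transcripts amplified without molecular identifiers, the spread is poorly known, and members at 0 in IgG have lower bounds only. Of the 46 members called against IgG, 42 were called in every alternative run; Eif4ebp2, Eif4ebp3, Eif2s3x and Eif3h were lost when 1 library was left out. Of the 48 called in IgG against Input, 43 were called in every alternative run (Eif5a, Eif3h, Eif6, Eif4ebp1 and Eif3g were not), and of the 16 called in anti-m6A against Input, 4 were. Leaving out 1 library gave 36 to 39 higher and 6 to 10 lower members in anti-m6A against IgG, 4 to 16 higher and 0 to 17 lower in anti-m6A against Input, 8 to 10 higher and 38 lower in IgG against Input, and 0 to 10 higher than both. The lone library of a group was assumed to vary like the others. Against Input, lower members numbered 16 with DESeq2's size factors, 17 with library totals and 19 by DESeq2's test. Among all genes 2982, 3127 and 3635 were then lower, against 2308 in the main fit. Library totals gave 11 members lower than IgG and 3 higher than both, of 1147 and 2091 genes. The filter of at least 10 counts in every library left 16 members to test. It gave 4 higher and 7 lower than IgG, 4 higher and 5 lower than Input, and 1 higher than both. In IgG against Input it gave 5 higher and 4 lower members. Among all genes 593 were then higher and 586 lower than IgG, 410 higher and 518 lower than Input, and 190 higher than both. In IgG against Input 480 genes were higher and 571 lower. Under that filter Eif5a in IgG against Input was -0.17 (edgeR adjusted p = 0.366), reversed from 0.72; the cause was not tested. Deviations from group means were correlated across genes between samples with the same replicate number. The values were 0.127 (anti-m6A and IgG), 0.102 (anti-m6A and Input) and 0.0456 (IgG and Input). With 2 libraries a group they cannot show whether a number marks a shared animal or day, and the labels do not say. With the replicate block 3 members were lower than Input by edgeR, of 1242 genes in all, against 2308 in the main fit. In that fit 0 members were higher than both by edgeR (9 at an unadjusted p under 0.05), and so were 0 genes of the whole table.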
